A study of Homo sapiens with 10 samples.

Results

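The 12 h between 8 and 20 h of calcitriol treatment were examined in SKBR3, a HER2-amplified breast carcinoma cell line that carries a mutant p53 per its labels. The 2 arrays taken at 20 h were set against the 2 taken at 8 h, 1 array per siRNA at each time, so the comparison rests on 4 of the 10 arrays of the series. At 20 h and at 8 h the cells carried either siRNA against p53 (p53i) or, as the negative control, siRNA against LacZ, a gene of bacteria (LacZi), and both received 1alpha,25-dihydroxyvitamin D3 (calcitriol, D3 in the labels) at 100 nM in medium with charcoal-stripped serum, which is depleted of steroid hormones. The other arrays were 1 per siRNA at 50 h of D3 and 2 untreated arrays per siRNA, labelled as biological replicates. Every condition came from this 1 cell line and its transfected cultures. The siRNAs served as the replicates of the step, and for the D3 arrays the labels name no separate cultures, so p-values measure the spread between these samples only. No untreated array was labelled as harvested with the D3 times, and a response to D3 and 12 more h in culture cannot be told apart. Between transfection and D3 lay 24 h by the labels of the samples but 48 h by the text of the series. In RNA from whole cultures, fewer cells of one state and less RNA per cell cannot be told apart either.

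Calcitriol enters cells and binds the vitamin D receptor, VDR, a nuclear receptor that pairs with a retinoid X receptor on DNA and recruits coregulators. Its direct targets are transcribed within hours, among them CYP24A1, the hydroxylase that inactivates the hormone. In breast carcinoma cells the hormone is known for slowing the cell cycle and for promoting differentiation, effects that take longer and pass through the products of early target genes. The interval between 8 and 20 h lies between early target gene transcription and the later changes.

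The arrays gave a MAS5 signal, a background-corrected and array-scaled brightness, for each of 54675 probe sets. The median signal per array was 35.7 to 44.3. Each gene was represented by its brightest probe set with a single symbol, and 12022 genes in the upper 50% of probe sets by mean signal were tested on the scale log2(signal + 16), on which the difference of a weak gene is understated. CYP24A1 had signals of 4502 (p53i) and 5039 (LacZi) at 20 h and of 4824 and 5489 at 8 h, against 23.7 to 40 on the untreated arrays. This checks that all 4 arrays had D3. It cannot check which were taken at 8 and which at 20 h, since the levels were similar. The epithelial and HER2 markers of the line (ERBB2, GRB7, KRT7, KRT8, KRT18, KRT19 and EPCAM) summed to 94995 (p53i) and 81372 (LacZi) at 20 h, against 93964 and 81674 at 8 h. The 6 marker lists of other cell types summed to between 121 and 632 on the 20 h arrays, against 116 to 568 on the 8 h arrays, and the highest single member was the collagen gene COL1A1, with 272 (p53i) and 450.1 (LacZi) at 20 h, against 288 and 435 at 8 h. Next came MYLK, PECAM1, CIDEC and CD79A, with up to 137 on these 4 arrays, while the leukocyte marker PTPRC had 20.9 or less and the liver marker ALB 33.6 or less. None of the tested members of those lists was called. The 3' control probe set of ACTB divided by the 5' one, a ratio which increases as RNA is degraded or labelled from the 3' end alone, was 7.11 (p53i) and 4.80 (LacZi) at 20 h, against 4.77 and 5.05 at 8 h. The p53i 20 h array was thus the one with the highest ratio of the 4, while untreated arrays ranged from 3.79 to 8.72.

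No gene passed the test at an adjusted p under 0.05 (limma, Benjamini-Hochberg over 12022 genes; 0 called, 0%). The smallest adjusted p was 0.76, and 415 genes (3.45%) had an unadjusted p under 0.05, against 601 that the threshold gives by chance. Of these, 205 (1.71%) were higher and 210 (1.75%) lower at 20 h. The median standard error of a difference was 0.199 on the log2 scale. Simulated data with this spread and 200 changed genes gave a reach of the test at this step. The test recovered 51 of 100 genes at a log2 change of 1 and 92 of 100 at a change of 2. Where fewer genes change, the adjustment asks for a smaller p, so these shares would overstate the reach. That case was not simulated. The values below are therefore given as measured differences, and none is a called change unless the sentence says so. Most genes were named for the size or p of their step. Where their 20 h arrays lie above or below the untreated ones, this rests on the same 20 h readings as the step. The share of all genes placed so was not computed.

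The movement of single genes over the 12 h was no wider than the difference between untreated duplicates. In p53i cells, 275 genes (2.29%) differed at least 2-fold between 20 and 8 h, against 430 genes (3.58%) between the untreated duplicates. In LacZi cells, 259 genes (2.15%) did, against 318 (2.65%) between the duplicates. The p53i duplicates had ACTB ratios of 4.39 and 8.72, the LacZi ones 4.05 and 3.79. Whether this widened the difference between the p53i duplicates, also where they are used below, was not tested. The siRNAs shared little of it, since 14 genes (0.116%) were at least 2-fold higher and 10 (0.0832%) at least 2-fold lower at 20 h in both. Across the 12022 genes the steps of p53i and LacZi cells had a Pearson correlation of 0.07 and a Spearman correlation of 0.08, given as a description over genes, which are not independent. By sign alone, 3020 genes (25.1%) were higher and 3387 (28.2%) lower at 20 h in both siRNAs, and 5615 moved in opposite directions.

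**Figure D1:**
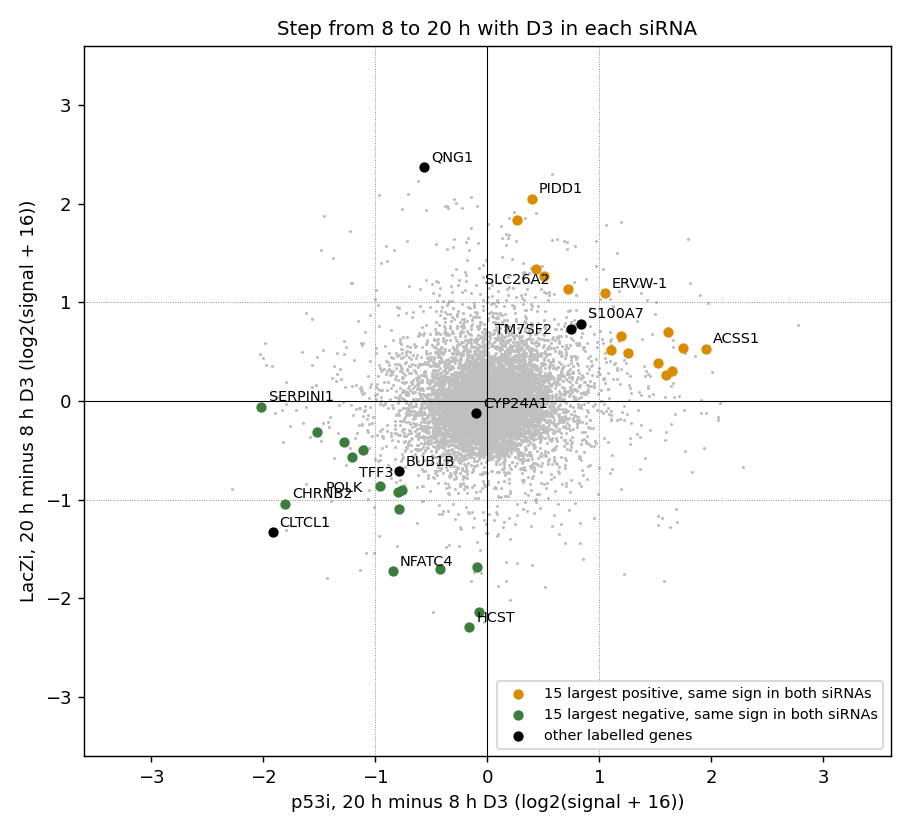
Difference between 20 and 8 h of D3 in p53i cells (x axis) and LacZi cells (y axis), each on the scale log2(signal + 16), for 12022 genes (grey points). Dotted lines mark a 2-fold difference. The cloud has no slant (Pearson correlation 0.07), most genes named by size lie near one axis, and SLC26A2, TM7SF2, S100A7, ERVW-1, BUB1B and POLK lie near the diagonal.

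A few genes had steps of similar size in both siRNAs. SLC26A2, a sulfate transporter of the plasma membrane, had signals of 374 (p53i) and 900.3 (LacZi) at 20 h, against 220.0 and 402 at 8 h. Untreated p53i cells had 104 and 93.2, untreated LacZi cells 161 and 157, and the 50 h arrays 710.3 and 1664. In each siRNA the level was higher at every later time, and the 20 h arrays lay above all untreated and 8 h arrays of the same siRNA. The difference between 20 and 8 h was 0.93 ± 0.19 on the log2 scale (mean ± SE, 1.90-fold), and the 2 other probe sets of the gene had the same sign. Without the LacZi 20 h array another probe set was brightest and showed almost no difference, as given in the closing paragraph.

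TM7SF2, a sterol reductase of the late steps of cholesterol synthesis, followed the same course. Its signals were 1068 (p53i) and 1338 (LacZi) at 20 h, against 631 and 799 at 8 h, with 405 and 386 in untreated p53i cells, 354 and 466 in untreated LacZi cells, and 1656 and 2221 at 50 h. The 20 h arrays lay above all 8 h and untreated arrays, and the steps of the siRNAs, 0.74 and 0.73, were nearly equal (mean 0.74 ± 0.16 SE, 1.67-fold). For both genes the 20 h level passed the test against untreated cells (71 genes called, 0.591%), SLC26A2 higher by 2.08 (adjusted p = 0.000168) and TM7SF2 by 1.54 (adjusted p = 0.000229). The 8 h level did so too (21 genes called, 0.175%), by 1.15 (adjusted p = 0.0148) and 0.80 (adjusted p = 0.0479). Neither passed for the step itself, with an adjusted p of 1 for each (limma). The 20 h level and the step share the 20 h arrays, so high readings there would raise both.

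CRYBG1, which codes for a protein with crystallin domains, had almost the same values in both siRNAs, at 2289 (p53i) and 2275 (LacZi) at 20 h, against 1570.3 and 1569 at 8 h. Untreated arrays had 1272 to 1522 and the 50 h arrays 2883 and 2569, so the 20 h arrays stood above all earlier ones. The difference was 0.54 ± 0.12 SE (1.45-fold). The gene was named after its values were seen, as 1 of the 10 with the smallest p.

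S100A7 (psoriasin), a calcium-binding protein of squamous and inflamed epithelia, had 1129 (p53i) and 2952 (LacZi) at 20 h, against 627 and 1707 at 8 h. The untreated duplicates were far apart, with 385 and 764 in p53i cells and 767 and 1978 in LacZi cells, and the 8 h arrays lay within the range of their own duplicates. The difference was 0.81 ± 0.36 SE, a step of 0.83 and 0.78 in the siRNAs. The 50 h arrays had 2249 and 4987. ERVW-1, which codes for the retroviral envelope protein syncytin, had 149 (p53i) and 316 (LacZi) at 20 h, against 63.9 and 139 at 8 h, with 35.6 to 62.2 on the untreated arrays and 251 and 719.7 at 50 h. All 4 of its D3 arrays at 8 and 20 h stood above the untreated ones, with a step of 1.07 ± 0.36 SE.

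In the opposite direction, BUB1B, the kinase of the spindle assembly checkpoint also called BubR1, had 622 (p53i) and 673 (LacZi) at 20 h, against 1089 and 1112 at 8 h. The difference was -0.75 ± 0.20 SE (1.68-fold lower at 20 h), and the 50 h arrays had 628 and 576. The untreated arrays spanned 785 to 1322, and the 20 h arrays lay below all of them. POLK, a DNA polymerase that copies past damaged bases, had 233 (p53i) and 289.7 (LacZi) at 20 h, against 467 and 539.6 at 8 h, but untreated arrays between 226 and 621. Its other probe set did not follow, and the mean over both gave 0.0046 in place of a step of -0.91 ± 0.38 SE.

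A fit on the 4 arrays alone, paired by siRNA with 1 residual degree of freedom, called 6 genes (0.0498% of 12056). S100A7 (adjusted p = 0.00864), RASEF (adjusted p = 0.0234), TM7SF2 (adjusted p = 0.0234) and SLC26A2 (adjusted p = 0.0258) were higher at 20 h, and BUB1B (adjusted p = 0.0234) and POLK (adjusted p = 0.0258) were lower (limma). In that fit the spread comes from how far the siRNAs differed, and the untreated duplicates do not enter it. RASEF, a small GTPase of the Rab family, was read there on another probe set, with 656 (p53i) and 628 (LacZi) at 20 h and 391 and 259 at 8 h, a difference of 0.97. Its brightest probe set over all arrays gave 0.13.

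**Figure D2:**
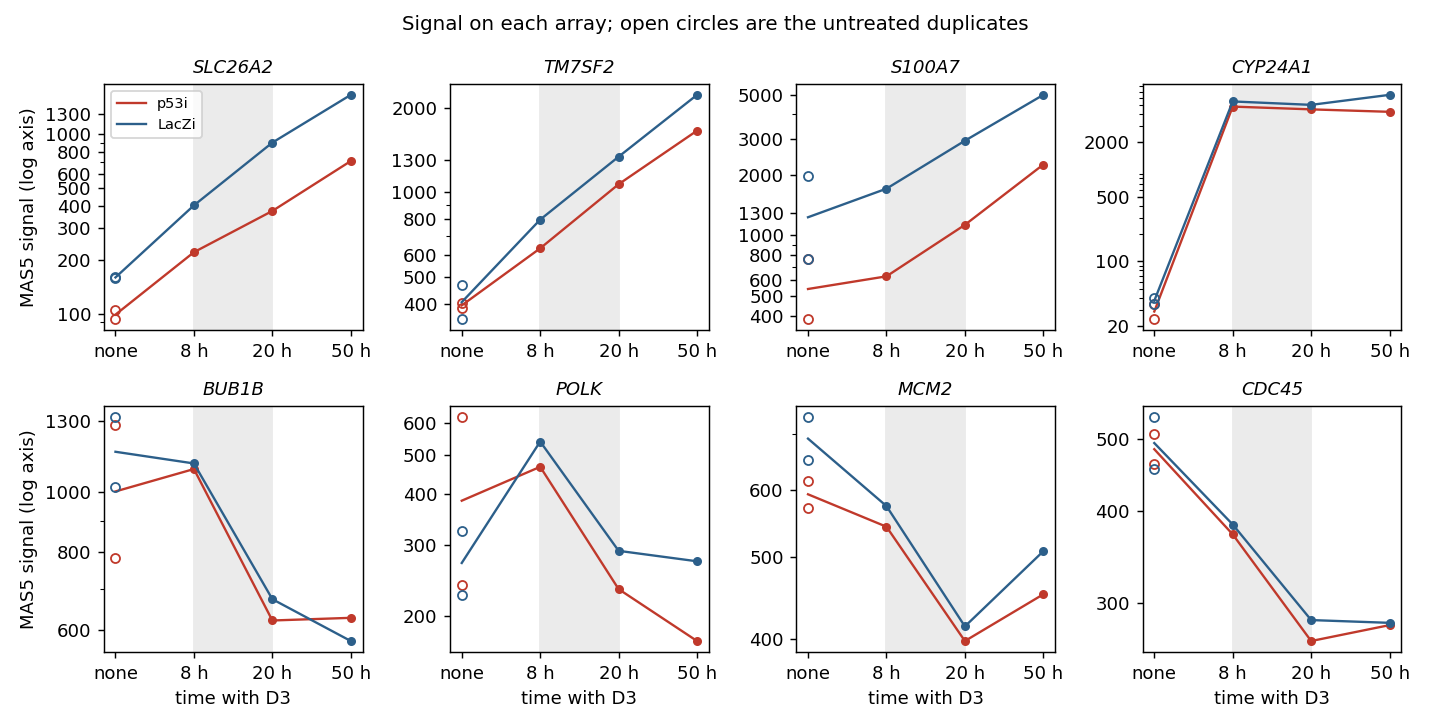
MAS5 signal (log axis) of 8 genes on each of the 10 arrays, by time with D3 (points evenly spaced, not to scale). Red marks p53i and blue LacZi, open circles are the untreated duplicates, lines start at their mean, and the shaded band is the interval from 8 to 20 h. SLC26A2 and TM7SF2 were higher at each later time, CYP24A1 stood between 4234 and 6476 from 8 h on, and BUB1B, MCM2 and CDC45 were at or near their lowest at 20 h.

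For the receptor and its direct targets the differences over these 12 h were small. VDR had 541 (p53i) and 680.5 (LacZi) at 20 h, against 579 and 761 at 8 h, a difference of -0.13 ± 0.15 SE. The mean over all its probe sets, weak ones included, gave 0.57. CYP24A1 differed by -0.11 ± 0.16 SE. On the brightest probe set each difference was thus smaller than its standard error. Of 24 tested members of a list of VDR target genes, 0 were called. In both siRNAs 6 (25%) were higher and 8 (33.3%) lower at 20 h, near the 25.1% and 28.2% of all genes. The median difference was -0.02, beside -0.01 over all genes. At an unadjusted p under 0.05, 2 members (CAMP and CDKN1A) were higher and 0 lower.

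Other genes that were already above untreated cells at 8 h differed in their step. TRPV6, a calcium channel of absorptive epithelia, had 749 (p53i) and 583 (LacZi) at 20 h, against 825 and 691 at 8 h, and 122 to 313 untreated. It passed the test at 8 h against untreated cells (higher by 1.76, adjusted p = 0.00359, limma) and differed by -0.19 ± 0.23 SE in the step. Its 20 h arrays stayed above all untreated ones. ITPR1, the calcium release channel of the endoplasmic reticulum, had 335 (p53i) and 342 (LacZi) at 20 h, against 332 and 319 at 8 h, a step of 0.06 ± 0.28 SE. The 4 arrays were nearly equal for this gene. PNMT, the enzyme that makes adrenaline and a neighbour of ERBB2 on chromosome 17, had 109 (p53i) and 148 (LacZi) at 20 h, against 153 and 244 at 8 h and 18.8 to 62.6 untreated. Its step was -0.55 ± 0.28 SE after a called difference of 2.10 at 8 h (adjusted p = 0.00359, limma). EFL1, a GTPase of ribosome maturation on the list of VDR targets, had 566 (p53i) and 643 (LacZi) at 20 h, against 703 and 815 at 8 h and 322 to 425 untreated, a step of -0.32 ± 0.16 SE. For PNMT and EFL1 both 20 h arrays lay between the untreated and the 8 h arrays of their siRNA. In TRPV6, PNMT and EFL1 the level at 8 h and the step share the 8 h arrays, so high readings there would raise the first and lower the second.

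A few targets had a positive step in one siRNA more than the other. CDKN1A, the CDK inhibitor p21, had 305 (p53i) and 399.6 (LacZi) at 20 h, against 131 and 340.1 at 8 h, steps of 1.13 and 0.22 (mean 0.67 ± 0.28 SE). CAMP, the antimicrobial peptide cathelicidin, had 124 (p53i) and 139 (LacZi) at 20 h, against 100.3 and 27.5 at 8 h. Its mean step of 1.05 ± 0.36 SE rested on the LacZi 8 h array, the lowest of its 10 values. KLK6, a secreted kallikrein protease, had 77.8 (p53i) and 143 (LacZi) at 20 h, against 74.6 and 64.2 at 8 h, steps of 0.05 and 0.99. Among 22 tested genes of calcium and ion transport, 0 were called, with SLC26A2 the highest at 0.93. In both siRNAs 7 were higher and 7 lower (31.8% each), beside 25.1% and 28.2% of all genes. The DR3 element to which VDR binds was searched on both strands as NGNTCA, any 3 bases, and NGNTCA again. Windows ran from 250 bases before to 50 after the start. It was in 0 of the 18 VDR target promoters found in the RefSeq table, against 0.586% of 27305 promoters. The G1/S, G2/M, interferon and cholesterol lists had 0 too. At so low a share a match among 18 promoters is unlikely, so the 0 cannot set these targets apart from other genes.

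Most genes of the cell cycle lists had lower values at 20 h than at 8 h in both siRNAs, by small amounts. The lists were already lower at 8 h than in untreated cells, with medians of -0.18 (G1/S) and -0.16 (G2/M). Of 39 tested genes of G1/S and DNA synthesis, 26 (66.7%) were lower and 2 (5.13%) higher in both siRNAs, beside 28.2% and 25.1% of all genes. Their median difference was -0.24, with -0.25 in p53i and -0.23 in LacZi cells. None was called, and 11 were lower and 0 higher at an unadjusted p under 0.05. Between the untreated duplicates (replicate 2 minus 1) the median was -0.04 in p53i and -0.06 in LacZi cells, smaller than the step.

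MCM2, a subunit of the replicative helicase, had 398 (p53i) and 414 (LacZi) at 20 h, against 543 and 575 at 8 h, with 572 to 733 untreated and 452 and 508 at 50 h. The 20 h arrays were the lowest of the 10 for this gene, and the step was -0.45 ± 0.14 SE (1.36-fold lower). TYMS, which makes the thymidylate for DNA, had 1623 (p53i) and 1930.4 (LacZi) at 20 h, against 2123 and 2491 at 8 h, a step of -0.37 ± 0.12 SE, or 0.20 as the mean over all its probe sets, weak ones included. CDC45, which activates the helicase, had 266 (p53i) and 284 (LacZi) at 20 h, against 371 and 383 at 8 h (-0.43 ± 0.15 SE). POLA1, the catalytic subunit of DNA polymerase alpha, had 317 (p53i) and 304 (LacZi) at 20 h, against 390.3 and 463 at 8 h (-0.44 ± 0.15 SE). For CDC45 and POLA1 too, both 20 h arrays were below both 8 h arrays. Such a separation is easily reached with so few arrays, and its share over all genes was not computed.

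Of 42 tested genes of G2/M and mitosis, 37 (88.1%) were lower and 2 (4.76%) higher in both siRNAs, with a median difference of -0.26 (p53i -0.20, LacZi -0.29). None was called, 8 were lower at an unadjusted p under 0.05 and 1 was higher. This list also differed between the untreated duplicates, by a median of -0.30 in p53i cells, more than over the step, and of -0.24 in LacZi cells, less than over the step. With BUB1B, described above, MKI67, the proliferation antigen Ki-67, had 734 (p53i) and 608 (LacZi) at 20 h, against 869 and 859 at 8 h (-0.36 ± 0.14 SE). DLGAP5, a spindle protein, had 299 (p53i) and 370.1 (LacZi) at 20 h, against 449.8 and 462 at 8 h (-0.44 ± 0.17 SE). In both genes the 20 h arrays lay below both 8 h arrays. These genes were named for their small p, and the share of all genes separated in this way was not computed.

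CENPM, a centromere protein, went against its list. It had 303 (p53i) and 348 (LacZi) at 20 h, against 196 and 217 at 8 h, while untreated arrays had 367 to 485. The 8 h level was a called decrease against untreated cells (-0.998, adjusted p = 0.0165, limma), and the step to 20 h was 0.62 ± 0.17 SE. Both values use the same 8 h arrays, so low 8 h readings alone would give a decrease and then a rise. The same list's other member that was higher in both siRNAs, the mitotic kinesin KIF23 (named after its values were seen), had steps of 0.50 and 0.06.

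The 3 promoters printed here carry the motifs that recur in these lists, with matches on either strand in capitals. They are 300-base RefSeq windows (GRCh38.p14, 250 bases before to 50 after the start), written 5' to 3' on the gene's strand. BUB1B (chr15:40160819-40161118, plus strand) and DLGAP5 (chr14:55191536-55191835, minus strand) hold the cell cycle genes homology region, CHR (TTTGAA), and MCM2 (chr3:127598161-127598460, plus strand) an E2F element (TTTNNCGC) that reads the same way on both strands and gives 2 overlapping matches.
BUB1B: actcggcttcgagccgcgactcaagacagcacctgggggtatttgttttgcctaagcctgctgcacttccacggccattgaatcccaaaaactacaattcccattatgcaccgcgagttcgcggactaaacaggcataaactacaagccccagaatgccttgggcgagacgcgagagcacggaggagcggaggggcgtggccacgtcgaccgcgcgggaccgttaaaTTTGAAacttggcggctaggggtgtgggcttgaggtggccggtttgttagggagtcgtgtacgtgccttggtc
DLGAP5: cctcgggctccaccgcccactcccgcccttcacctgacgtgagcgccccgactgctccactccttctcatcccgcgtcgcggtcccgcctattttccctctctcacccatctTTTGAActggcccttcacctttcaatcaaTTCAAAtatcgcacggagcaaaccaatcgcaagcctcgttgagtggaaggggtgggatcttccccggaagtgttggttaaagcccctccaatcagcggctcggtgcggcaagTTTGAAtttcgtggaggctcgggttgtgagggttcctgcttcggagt
MCM2: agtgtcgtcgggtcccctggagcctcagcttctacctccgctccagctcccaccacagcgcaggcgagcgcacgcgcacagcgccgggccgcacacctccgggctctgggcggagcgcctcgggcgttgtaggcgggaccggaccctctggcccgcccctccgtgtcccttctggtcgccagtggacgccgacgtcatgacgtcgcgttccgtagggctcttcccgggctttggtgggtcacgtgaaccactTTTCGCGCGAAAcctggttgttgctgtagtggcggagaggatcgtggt
BUB1B holds 1 CHR match close to its start and DLGAP5 holds 3. Of the 34 G2/M genes with a promoter in the table, 67.6% held a CHR, against 2.94% of 34 G1/S genes and 15.4% of 27305 promoters. E2F elements were in 61.8% of the G1/S promoters, 11.8% of the G2/M promoters and 6.9% of all. A match describes letters and was not tested as a binding site.

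**Figure D3:**
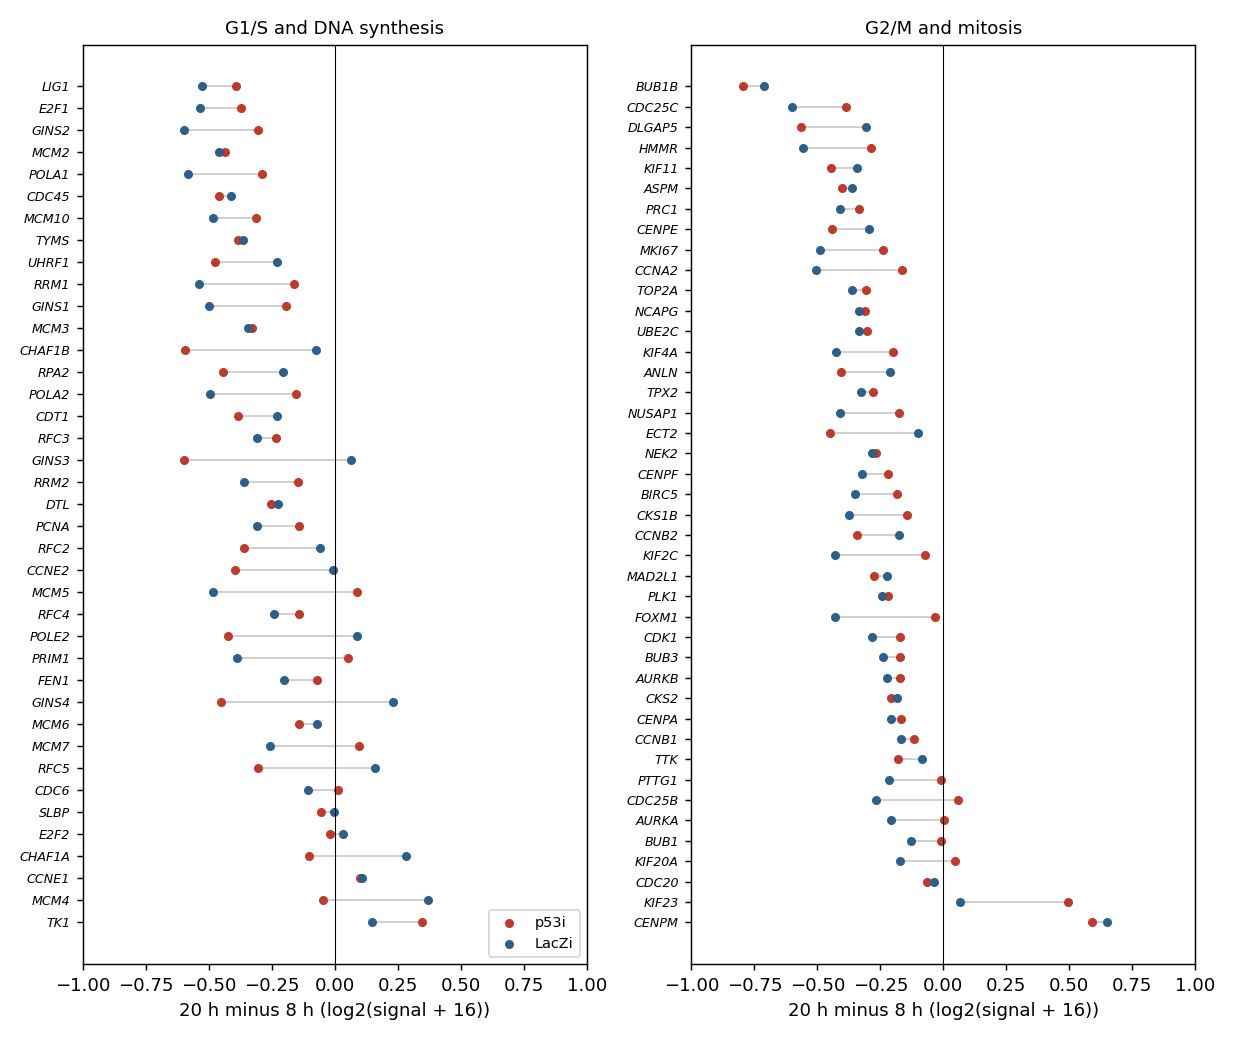
Difference between 20 and 8 h on the scale log2(signal + 16) for every tested gene of the G1/S list (39, left) and the G2/M list (42, right), p53i in red and LacZi in blue, sorted by their mean. Of the G2/M genes 37 and of the G1/S genes 26 lie left of 0 in both siRNAs, and CENPM lies at 0.59 and 0.65.

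Upstream regulators had no common direction. In the list of CDK inhibitors, D cyclins and the RB family, 0 of 16 were called. In both siRNAs 7 (43.8%) were higher and 5 (31.2%) lower, beside 25.1% and 28.2% of all genes. CDK6, the kinase partner of D cyclins, had 857 (p53i) and 826 (LacZi) at 20 h, against 688 and 391 at 8 h (0.68 ± 0.31 SE). CDKN2B, the inhibitor p15, had 162 (p53i) and 161 (LacZi) at 20 h, against 115 and 109 at 8 h (0.47 ± 0.25 SE), with 50.1 to 88.8 untreated. For CDKN2B the 20 h arrays were above all earlier ones. Of 25 tested p53 target genes, 12 (48%) were lower and 4 (16%) higher in both siRNAs, beside 28.2% and 25.1% of all genes. With 0 called, 2 were higher and 1 lower at an unadjusted p under 0.05, and the median was -0.15. That median was -0.03 without the p53i 8 h array, -0.06 without the p53i 20 h array, -0.08 without the LacZi 20 h array, -0.07 over the mean of all probe sets and -0.01 among the upper 25% of probe sets.

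Interferon-stimulated genes, which are induced by type I interferon and code for antiviral proteins, had mostly positive differences. Of 34 tested, 16 (47.1%) were higher and 2 (5.88%) lower in both siRNAs, beside 25.1% and 28.2% of all genes, and the other 16 differed in sign. The median difference was 0.32, with 0.51 in p53i and 0.16 in LacZi cells, and the untreated duplicates differed by 0.13 and -0.02. None was called, and 5 were higher and 0 lower at an unadjusted p under 0.05. Without the p53i 8 h array the median was 0.15, without the LacZi 8 h array 0.52, and among the upper 25% of probe sets 0.13. It was 0.20 in the fit on the 4 arrays and 0.21 with an offset of 64.

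For these genes the 8 h arrays were low, and the list's median at 8 h was -0.41 against untreated cells. That median and the step share the 8 h arrays, so low readings there would lower the first and raise the second. MX1, a GTPase that blocks virus replication, had 194 (p53i) and 48.1 (LacZi) at 20 h, against 77.7 and 6.60 at 8 h, with 84.6 and 207 in untreated p53i cells and 17.7 and 30.8 in untreated LacZi cells. BST2 (tetherin), which holds budding virus at the membrane, had 239 (p53i) and 78.7 (LacZi) at 20 h, against 144 and 4.67 at 8 h, with 259 and 344 in untreated p53i cells and 101 and 76.1 in untreated LacZi cells. In both genes each 8 h array was the lowest of its siRNA. At 20 h MX1 lay between the untreated duplicates in p53i cells and above both in LacZi cells. BST2 lay below both in p53i cells and between them in LacZi cells. The LacZi 8 h signals of 6.60 and 4.67 were far under the filter signal of 35.4, where MAS5 values are noisy, and the LacZi steps rest on them. The steps were 1.33 ± 0.37 SE for MX1 and 1.43 ± 0.35 SE for BST2. IFITM1, a membrane protein that restricts virus entry, had 1889 (p53i) and 729 (LacZi) at 20 h, against 987 and 566 at 8 h (0.64 ± 0.27 SE). IRF7, the transcription factor of the interferon response, had 536 (p53i) and 266 (LacZi) at 20 h, against 261 and 208 at 8 h (0.66 ± 0.29 SE). The untreated p53i duplicates of IRF7 had 562 and 808, so its 20 h array lay below both.

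The interferon-stimulated response element, ISRE (GAAA, any 2 bases, and GAAA again, on both strands and in capitals), recurs in this list and is shown in the promoters of MX1 (chr21:41420308-41420607, plus strand) and BST2 (chr19:17405581-17405880, minus strand), in the same windows and build.
MX1: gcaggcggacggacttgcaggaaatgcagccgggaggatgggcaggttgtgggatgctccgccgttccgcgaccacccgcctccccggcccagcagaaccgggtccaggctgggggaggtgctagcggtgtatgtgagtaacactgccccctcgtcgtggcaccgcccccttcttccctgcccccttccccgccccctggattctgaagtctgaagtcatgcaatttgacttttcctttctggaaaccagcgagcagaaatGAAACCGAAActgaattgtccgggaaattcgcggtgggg
BST2: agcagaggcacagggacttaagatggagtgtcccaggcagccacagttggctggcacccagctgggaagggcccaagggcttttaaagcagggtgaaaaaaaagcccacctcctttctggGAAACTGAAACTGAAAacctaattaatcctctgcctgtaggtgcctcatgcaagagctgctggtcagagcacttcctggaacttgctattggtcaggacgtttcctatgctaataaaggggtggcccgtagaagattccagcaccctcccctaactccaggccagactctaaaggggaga
MX1 held 1 match, and BST2 held 2 that overlap in a run of repeats. Of the 28 listed genes with a promoter in the table, 57.1% held a match, against 3.65% of all 27305 promoters and none of the G1/S or G2/M promoters.

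Genes of cholesterol synthesis had small positive steps around TM7SF2. Of 17 tested, 8 (47.1%) were higher and 2 (11.8%) lower in both siRNAs, beside 25.1% and 28.2% of all genes. Their median was 0.10, and 0 were called. At an unadjusted p under 0.05, TM7SF2 and DHCR7 were higher and 0 lower. The median was 0.06 without the p53i 8 h array, 0.17 without the LacZi 8 h array and 0.16 without the LacZi 20 h array. It was 0.04 with the ACTB ratio as a covariate, where 9 members were higher and 8 lower, 0.04 under median centring and 0.05 over the mean of all probe sets. The untreated duplicates of this list differed by more, with medians of 0.40 in p53i and 0.16 in LacZi cells. DHCR7, which catalyses the last step to cholesterol and consumes the precursor of vitamin D, had 2523 (p53i) and 1900.2 (LacZi) at 20 h, against 1770.0 and 1420.5 at 8 h (0.46 ± 0.17 SE). HMGCS1, at the head of the pathway, had 759 (p53i) and 563 (LacZi) at 20 h, against 514 and 459 at 8 h (0.42 ± 0.21 SE). In untreated p53i cells the duplicates of DHCR7 had 1286 and 1968 and those of HMGCS1 393 and 696, a wider gap than the p53i step in both genes.

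**Figure D4:**
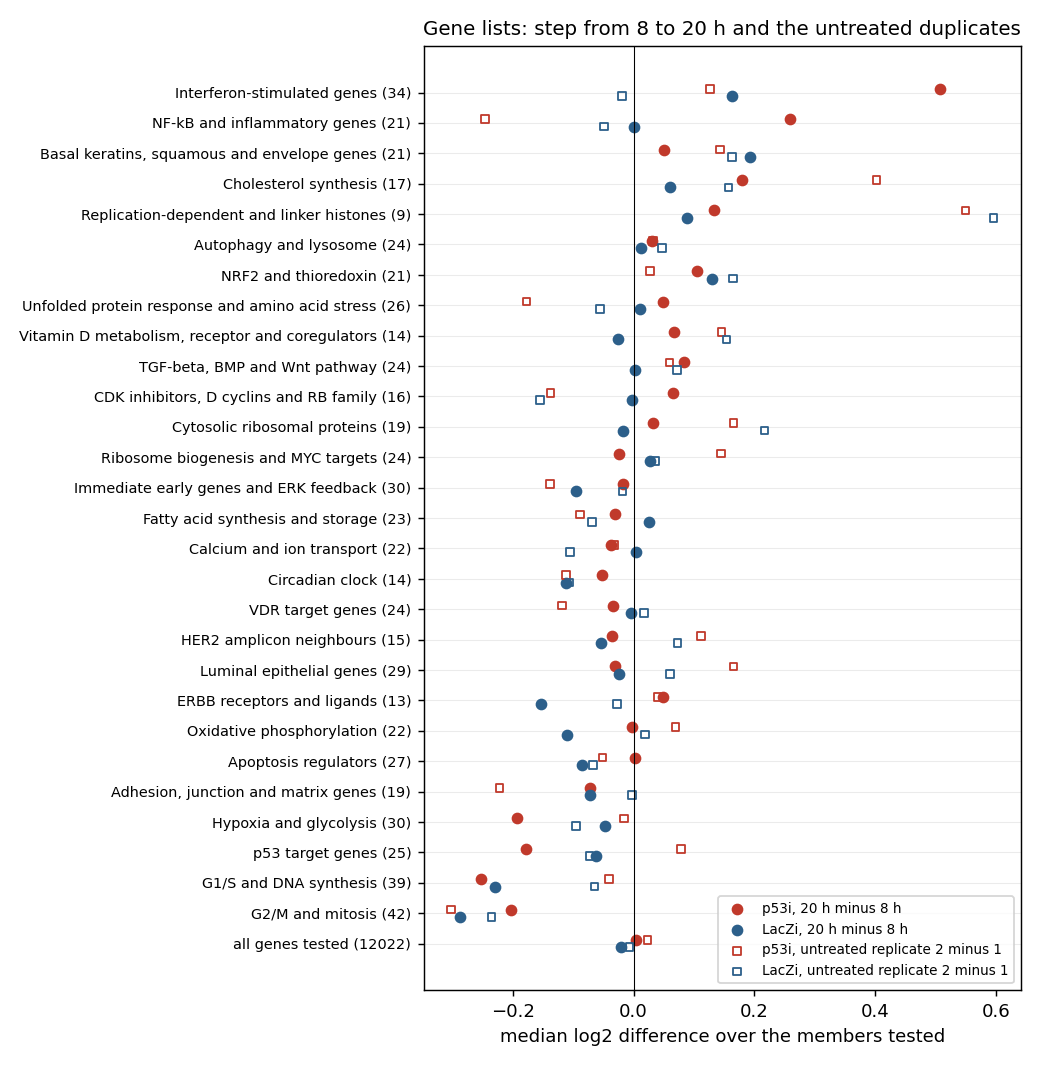
Median log2 difference of each gene list's tested members (number in brackets) between 20 and 8 h of D3 (filled circles) and between the untreated duplicates (open squares), p53i in red and LacZi in blue. The G1/S list has steps of -0.25 and -0.23 with duplicates near 0, while the duplicates differ by more than the step for the cholesterol list in both siRNAs and for the G2/M list in p53i cells, but by less for the G2/M list in LacZi cells.

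Other gene groups had medians of 0.13 or less in either direction. Hypoxia and glycolysis genes were lower in both siRNAs in 16 of 30 (53.3%) and higher in 3 (10%), beside 28.2% and 25.1% of all genes. Their median was -0.11, and PDK1 and HK2 were lower at an unadjusted p under 0.05. The median was -0.04 without the p53i 20 h array, -0.17 without the LacZi 20 h array, -0.16 under median centring and -0.07 over the mean of all probe sets. PDK1, a kinase that inhibits pyruvate dehydrogenase, had 214 (p53i) and 263 (LacZi) at 20 h, against 402 and 333 at 8 h (-0.59 ± 0.21 SE). HK2, a hexokinase, had 1045 (p53i) and 1119.5 (LacZi) at 20 h, against 1359.7 and 1349 at 8 h (-0.32 ± 0.14 SE), and the mean over all its probe sets was 0.10. The 20 h values of PDK1 lay below all untreated arrays, which had 283 to 434. NF-kB and inflammatory genes were higher in both siRNAs in 9 of 21 (42.9%) and lower in 6 (28.6%), beside 25.1% and 28.2% of all genes. Their median of 0.13 was 0.26 without the LacZi 20 h array and 0.07 under median centring. TNFAIP3, the ubiquitin editor that ends NF-kB signals, had 231 (p53i) and 294 (LacZi) at 20 h, against 129 and 227 at 8 h (0.56 ± 0.22 SE).

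Of 29 luminal epithelial genes, 14 (48.3%) were lower and 8 (27.6%) higher in both siRNAs (median -0.03), beside 28.2% and 25.1% of all genes. TFF3, a secreted trefoil peptide of luminal cells, had 183 (p53i) and 117 (LacZi) at 20 h, against 445 and 179.9 at 8 h, and 219 to 428 untreated, with both 20 h arrays below all untreated ones (-0.89 ± 0.26 SE). AZGP1, a secreted zinc-binding glycoprotein, had 716 (p53i) and 734 (LacZi) at 20 h, against 1114 and 939 at 8 h (-0.49 ± 0.19 SE). Basal and squamous genes were higher in both siRNAs in 9 of 21 (42.9%) and lower in 2 (9.52%), beside 25.1% and 28.2% of all genes. Their median was 0.11, and their untreated duplicates differed by 0.14 in p53i and 0.16 in LacZi cells. Their median was 0.19 without the p53i 20 h array, 0.04 without the LacZi 8 h array, 0.06 without the LacZi 20 h array, 0.06 with the ACTB ratio as a covariate and 0.05 under median centring. KRT5, a basal keratin, had 37.3 (p53i) and 88.2 (LacZi) at 20 h, against 28.6 and 43.2 at 8 h (0.54 ± 0.44 SE). FADS2, a fatty acid desaturase, had 11.6 (p53i) and 28 (LacZi) at 20 h, against 68.8 and 63 at 8 h (-1.23 ± 0.47 SE), and 31.5 to 86.1 untreated. In FADS2 both 20 h arrays lay below every untreated one, and under the filter signal of 35.4, where MAS5 values are noisy. Ribosomal protein, oxidative phosphorylation, unfolded protein response, autophagy and HER2 amplicon genes had medians between -0.06 and 0.07, and the lists not named so far between -0.09 and 0.09. Among these, the histone list had a median of 0.09, and its untreated duplicates differed by 0.55 in p53i and 0.60 in LacZi cells. The histone median was -0.05 after adjusting for the ACTB ratio and 0.04 under median centring. The adhesion and matrix list, at -0.09, had -0.05 without the p53i 8 h array and -0.01 without the p53i 20 h array. All 28 pathway lists had 0 genes called.

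The largest differences by size with the same sign in both siRNAs, 15 in each direction, were mostly genes of low signal. In 12 of the 15 positive ones the lowest of all 10 arrays was an 8 h array, p53i in 7 and LacZi in 5, and in 11 of the 15 negative ones it was a 20 h array, p53i in 5 and LacZi in 6. One siRNA had at least 2 times the step of the other in 12 of the positive and 10 of the negative genes. ACSS1, a mitochondrial acetyl-CoA synthetase, led the positive genes with 136 (p53i) and 103 (LacZi) at 20 h, against 23.3 and 66.8 at 8 h (1.24 ± 0.36 SE), and its untreated arrays had 76.4 to 131. PIDD1, a death-domain protein of the DNA damage response, had 281 (p53i) and 267 (LacZi) at 20 h, against 210.1 and 52.3 at 8 h (1.22 ± 0.36 SE). In PIDD1 the LacZi 8 h array alone was low. The other positive ones were NCF4, MSRB3, ERVW-1, CAMP, TCTN2, PARS2, SLC26A2, TMEM154, ALMS1, ABCB9, KMT5C, PRICKLE1 and LINC03124, with steps of 0.81 to 1.16.

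Of the negative ones, CHRNB2, a nicotinic acetylcholine receptor subunit, led with 34.6 (p53i) and 40.5 (LacZi) at 20 h, against 160.4 and 100.1 at 8 h (-1.42 ± 0.36 SE), with 58.5 to 138 untreated. NFATC4, a calcineurin-dependent transcription factor, had 59.2 (p53i) and 23.5 (LacZi) at 20 h, against 119 and 115 at 8 h (-1.28 ± 0.31 SE). For both, the 20 h arrays were below all untreated ones, which for NFATC4 had 111 to 144. This held for 7 of the 15 negative genes, which were named for a fall to the same 20 h arrays. The p53i signal of CHRNB2 and the LacZi signal of NFATC4 at 20 h were under the filter signal of 35.4. POU2F3, the transcription factor of tuft cells, had 69.3 (p53i) and 61.9 (LacZi) at 20 h, against 132 and 131 at 8 h (-0.86 ± 0.23 SE), and 97.4 to 127 untreated. In RRP1 (-1.11) the LacZi 20 h array stood alone at 37, and in SERPINI1 (-1.04) the p53i 20 h array at 27.1. The others were HCST (-1.23) and TMPRSS2, IGFL1, ATG4C, POLK, TFF3, RUSC2, ARHGAP18, SENP7 and SDHAF3, with steps of -0.80 to -1.06.

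Ordered by p, a choice made after the values were seen, CLTCL1, a clathrin heavy chain, came first with 15.7 (p53i) and 29.4 (LacZi) at 20 h, against 104 and 98.2 at 8 h, and 135 to 168 untreated. The step was -1.62 ± 0.27 SE with an adjusted p of 0.76 (limma), and the 50 h arrays had 40.5 and 76.7. Both 20 h signals of CLTCL1 were under the filter signal of 35.4, where MAS5 values are noisy. KY, LRRC43 and ABCA4 had the reverse pattern. LRRC43 had 85.6 (p53i) and 76.2 (LacZi) at 20 h, against 19.7 and 30.1 at 8 h, while untreated arrays had 103 to 117. Its 8 h level was a called decrease against untreated cells (-1.62, adjusted p = 0.0148, limma), which shares the 8 h arrays with the step. The 10 of smallest p also held SLC26A2, ZNF575, TM7SF2, ALMS1, DBF4B and CRYBG1, and signals of 7.40 to 65.2 for DBF4B lie where MAS5 values are noisy.

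Whether the step differed between p53i and LacZi cells was tested with the 8 group means and 2 residual degrees of freedom from the untreated duplicates. No gene was called (limma, 0 of 12022, 0%), 218 (1.81%) had an unadjusted p under 0.05, and the smallest adjusted p was 0.118. That value belonged to QNG1, which codes for an enzyme of queuine salvage. It had 1913 (p53i) and 2371 (LacZi) at 20 h, against 2832 and 446 at 8 h, where the other 9 arrays had 1913 or more. The step was -0.56 in p53i and 2.37 in LacZi cells, and the difference of -2.93 rested on the LacZi 8 h array alone. PIK3IP1, an inhibitor of PI3 kinase, had 129.97 (p53i) and 25.6 (LacZi) at 20 h, against 46.7 and 124 at 8 h. SCYL3, LENG9 and RRP1 completed the 5 smallest p, and in LENG9 the p53i 8 h array stood at 4.35 beside 39.7 to 89.1 on the others.

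The next interval, from 20 to 50 h, lasted 30 h and shares the 20 h arrays with the step described here, so values are given side by side. It had 1 called gene (0.00832%), LINGO3, a leucine-rich repeat membrane protein, with 24.9 (p53i) and 24.3 (LacZi) at 50 h, against 148 and 157 at 20 h (-2.05, adjusted p = 0.0184, limma). No gene passed the test for a difference between the intervals (limma, 0 called, 0%, smallest adjusted p 0.206), and 251 genes (2.09%) had an unadjusted p under 0.05. The median standard error of that difference was 0.345, against 0.199 for the step, and the reach of this test was not simulated. SLC26A2 had a difference of 0.89 from 20 to 50 h beside 0.93 from 8 to 20 h, and TM7SF2 0.68 beside 0.74. The G1/S list had a median of -0.02 beside -0.24, the G2/M list -0.22 beside -0.26, and the interferon list 0.18 beside 0.32. The G1/S median was thus near 0 in the later interval, with -0.09 in p53i and 0.06 in LacZi cells. The G2/M median was not, with -0.25 in p53i and -0.14 in LacZi cells. For interferon genes the later median was 0.40 in p53i and -0.03 in LacZi cells. BUB1B differed by -0.10 from 20 to 50 h and MCM2 by 0.23.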

How the data were processed

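The deposited table gave 1 intensity per probe set and array on a linear scale, which the authors made with MAS5 per the submitters' processing notes (version not given in the sources used here). With 2% of the values trimmed at each end, every array had a mean of 200, so the scaling had been done and was not repeated. Detection calls were not used here, and the number of arrays limits the precision. Of 54675 probe sets, 41097 had 1 symbol in the platform annotation, 1801 several and 11777 none. Only those with 1 symbol were named. RefSeq gene IDs changed 0 symbols, and 42 without a match were kept as annotated. The gene that the p53 siRNA targets is not reported here. For the p53i sample at 8 h, whose title has a variant spelling of the siRNA, the group came from the source name.

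Each gene's probe set of highest mean was kept where it lay in the upper 50% by mean log2(signal + 16), a signal above 35.4. The difference 20 h minus 8 h came from limma 3.58.1 in R 4.3.3 (lmFit and trended eBayes, two-sided tests), with siRNA and D3 time as additive terms over all 10 arrays (5 residual degrees of freedom). It equals the mean of both siRNAs' matched differences. Simulated data with known changes were recovered, with 9 false calls among 152.

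Genes were named by rule: every called gene, the 15 largest positive and 15 largest negative differences with 1 sign in both siRNAs and a signal of at least 100 on both arrays of the higher time, 9 genes always named, up to 4 members of each of 28 pathway lists by smallest p, and 5 genes by smallest p for the siRNA difference. Other names were added after values were seen. The members and lists were chosen with earlier results of these data known. Alternatives covered the arrays fitted, the model, offset, normalization, filter, probe sets, variance trend, the ACTB ratio, leaving out each array, and a block for the replicate number.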

Additional observations from a re-analysis of the deposited data

How the results depend on the processing

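The count of 0 genes called between 20 and 8 h was unchanged under 12 of the 13 alternatives other than leaving out an array, and the fit on only the 4 arrays called 6. With 1 array left out it was 0 to 2, and the 2 genes were QNG1 and PIDD1 (2.07), called without the p53i 8 h array. For the siRNA difference in the step, median centring gave 1 gene (QNG1) and leaving out 1 untreated array 0 to 1. From 20 to 50 h, in place of 1 gene, the 6 D3 arrays alone and an offset of 64 gave 3 each, quantile normalization, the mean of all probe sets, no intensity trend and the ACTB ratio as a covariate 2 each, and the 8 group means, the upper 25% of probe sets and all probe sets unfiltered 0 each, with 0 to 2 when 1 array was left out. LINGO3 was not called without either 20 h array, either 50 h array, either 8 h array or either LacZi untreated array. The difference between the intervals was 0 genes except for 1 (ZNF575) with the mean of all probe sets. With the replicate number of the untreated arrays as a block, the step had 0 genes called, the interval from 20 to 50 h 1, the difference between intervals 0, and the siRNA difference 3 (QNG1, PIK3IP1 and H2AJ). The numbers pair the duplicates only by name, and across genes the differences of replicate 2 minus 1 in the siRNAs had a Pearson correlation of 0.22.

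Of 1699 values of 76 named genes, 1668 kept their direction and side of the threshold, 8 passed the threshold in addition and 23 changed sign, 12 of these with an array left out. With the mean of all probe sets, POLK was 0.0046, SENP7 0.0719, VDR 0.57, PIK3IP1 0.10, TYMS 0.20, HK2 0.10, ITPR1 -0.0688 and LINGO3 -0.33. ITPR1 was also -0.0018 under median centring and -0.0897 with the ACTB ratio, and RASEF -0.0291 with the ACTB ratio. With 1 array left out, ERBB2 ranged from -0.13 to 0.0496, QNG1 from -0.39 to 2.20, PIK3IP1 from -1.33 to 0.79, SCYL3 from -0.96 to 0.27, ITPR1 from -0.27 to 0.39, LENG9 from -0.33 to 1.94, RASEF from -0.0179 to 0.97, and SLC26A2 from -0.0077, where the LacZi 20 h array was left out and another probe set was brightest, to 0.98. On its own probe set SLC26A2 was 0.72 there. Apart from what an alternative's construction shows, the cause was not tested. Signals near the background limit what can be read of genes under a signal of 100.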
